A study of Mus musculus with 4 samples.

Results

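The 7 genes described here encode the contents of the cytotoxic granule and the death ligand of natural killer T (NKT) cells: granzymes A, B and C (Gzma, Gzmb, Gzmc), the granule proteoglycan serglycin (Srgn), perforin (Prf1), the granule protease cathepsin C (Ctsc) and Fas ligand (Fasl). They were chosen by symbol, with no measured value in the rule but with earlier results of these data known. All 7 are among the 12021 genes of the deposited count table. NKT cells were sorted by a high GFP signal from C57BL/6 mice aged 10 to 12 weeks that carried the Va14 transgene, which supplies the invariant receptor chain, and the cxcr6gfp/+ allele, so every library shares both. In the 2 resting libraries the cells were left unstimulated, and in the 2 tetramer libraries they were stimulated on plates coated with mCD1d-PBS57 tetramers, the lipid-loaded ligand of the receptor. Liver is the tissue in the labels, although the growth protocol names livers or spleens and the extraction protocol names islets. Neither the time of stimulation nor the number of mice behind a library is stated there, so a p-value reflects only how far these libraries spread, which may be a technical spread.

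NKT cells kill by several routes. In the granule route, perforin opens the membrane of the target cell and granzymes, which are serine proteases, enter and cleave their substrates. Granzymes are stored in acidic granules bound to serglycin, and cathepsin C turns their inactive precursors into active proteases. In the other route, Fas ligand on the cell surface engages the death receptor Fas and starts a caspase cascade.

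The sequences before the start sites of Gzma, Gzmb, Gzmc and Fasl are shown because these genes moved in opposite directions, the granzymes up and Fas ligand down. They are the 150 bases before the RefSeq start on build GRCm38.p6, 5′ to 3′ on the gene's strand, all on the minus strand. Capitals mark matches on either strand to the RUNX core TGTGGT, the AP-1 site TGANTCA, the NFAT core GGAAA and the CRE core TGACG, and 2 overlapping CRE core matches form 1 run in Gzmc. Gzmb lies at chr14:56262335-56262484, Gzmc at chr14:56234658-56234807, Gzma at chr13:113100982-113101131 and Fasl at chr1:161788496-161788645. The deposited counts carry no coordinates, and the submitters' notes name another build, mm9.
Gzmb: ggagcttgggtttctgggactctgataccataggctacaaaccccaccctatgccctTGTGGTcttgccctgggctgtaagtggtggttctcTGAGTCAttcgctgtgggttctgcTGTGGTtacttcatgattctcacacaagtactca
Gzmc: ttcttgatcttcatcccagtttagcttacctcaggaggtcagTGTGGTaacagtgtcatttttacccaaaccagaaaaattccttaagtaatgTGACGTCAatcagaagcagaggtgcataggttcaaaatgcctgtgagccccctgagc
Gzma: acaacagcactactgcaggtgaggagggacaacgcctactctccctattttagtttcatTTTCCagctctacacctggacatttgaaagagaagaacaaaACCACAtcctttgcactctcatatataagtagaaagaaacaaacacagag
Fasl: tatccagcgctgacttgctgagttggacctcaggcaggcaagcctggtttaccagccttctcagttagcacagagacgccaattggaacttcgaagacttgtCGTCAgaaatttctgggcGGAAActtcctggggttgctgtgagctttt

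Over the 250 bases before each start, Gzmb held 2 RUNX cores, beginning at -93 and -34, and 1 AP-1 site at -58. Gzmc held 2 RUNX cores, at -174 and -108, and the pair of CRE cores from -57 to -50. Gzma held 1 RUNX core at -50 and 2 NFAT cores, and Fasl held 1 CRE core at -48, 2 NFAT cores and no RUNX core. Among 32851 promoter windows of the same length, 14% held the RUNX core, 6.75% the AP-1 site, 17.8% the CRE core and 55.6% the NFAT core. The window of Prf1, which was not called, also held 1 RUNX core, at -130. Srgn, which rose like the granzymes, had 2 windows. Window 1 held 0 matches to the RUNX, AP-1, CRE and NFAT patterns, and window 2 held 1 RUNX core at -202, 1 CRE core and 2 NFAT cores. The T-box core AGGTGTG (5.1% of windows) and the EGR core GCGTGGGCG (0.536%) were found in none of the 8 windows of the 7 genes. A match is only a string of letters in the window, and no binding was measured.

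Granzymes B and C are close relatives, which matters for how their reads were assigned. Over their aligned coding bases, taken from GENCODE M21 transcripts, Gzmb and Gzmc were 76.6% identical, and Gzmc was 71.6% to 75.1% identical to Gzmd, Gzme, Gzmf, Gzmg and Gzmn. Gzma was at most 60.3% identical to any of the 9 other granzymes and shared no exact run longer than 13 bases with them. The longest exact runs that Gzmc shared with Gzmb (49 bases) and with Gzme (68 bases) are shown because a read inside one could come from either gene.
Gzmb and Gzmc: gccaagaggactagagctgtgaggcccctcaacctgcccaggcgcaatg
Gzmc and Gzme: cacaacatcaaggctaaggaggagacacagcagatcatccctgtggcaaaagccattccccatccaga
The treatment of reads shared between copies is not stated in the labels, so the level of Gzmc is uncertain. Granzymes D to G, K, M and N have no row in the table and were not analysed here.

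Each library held between 4168438 and 5495521 counts, and levels below are CPM, counts scaled to a common library size after TMM correction for differences in library composition. Differences were tested with edgeR's quasi-likelihood F test over 11312 genes, and a gene was called at a Benjamini-Hochberg adjusted p below 0.05. By this rule 14.3% of all tested genes were called higher and 12.1% lower, 26.4% in all. With library totals in place of TMM the split moved from 1620 higher and 1366 lower to 1193 and 2250, and the median of all genes from -0.06 to -0.35 on the log2 scale. All 12 NKT and T cell markers had a row, among them Cd3e and Zbtb16, the NKT lineage factor, with 55.7 and 64.3 CPM in the resting and 81.0 and 152 CPM in the tetramer libraries. Of these 12 markers 0 were called higher and 2 lower, Cxcr6 and Klrb1c. Klrb1c measured 114 and 174 CPM in the resting and 2.86 and 13.6 CPM in the tetramer libraries (edgeR adjusted p = 2.91e-06). Its call was the same under all 12 alternative settings. Cxcr6 measured 1617 and 1102 CPM at rest and 414 and 718 CPM after stimulation. Cxcr6 missed the threshold on omission of resting library 4 (adjusted p = 0.111) or tetramer library 4 (0.346), and against a fold of 1.5 (0.0710). In bulk libraries such as these, fewer cells of a type and less RNA per cell cannot be told apart. Adjusted p-values below are edgeR's throughout.

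Of the 7 genes, 4 rose (Gzma, Gzmb, Gzmc and Srgn, against 14.3% of all tested genes), 1 fell (Fasl, against 12.1%) and 2 did not pass the test (Prf1 and Ctsc), so 5 of 7 were called against 26.4% of all. These calls were the same under all 12 alternative settings, 84 of 84 comparisons, including the omission of each library in turn. The median log2 fold change of the 7 was 1.96, beside -0.06 over all tested genes. In none of the 7 did the resting and tetramer libraries overlap, but 65.2% of all tested genes did not overlap either.

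**Figure D1:**
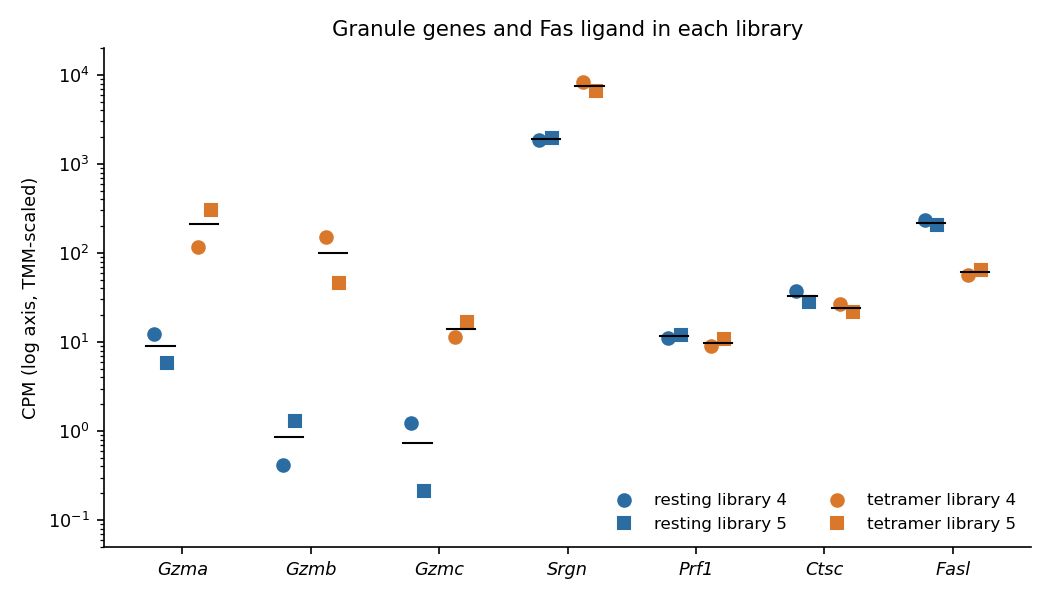
CPM of the 7 genes (log axis) for resting cells (blue) and tetramer-stimulated cells (orange), with circles for library 4, squares for library 5 and black bars for group means. The 3 granzymes and Srgn lie higher after stimulation, Fasl lies lower, and the libraries of Prf1 and Ctsc lie close together.

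Granzyme B, which cleaves caspases and other targets after aspartate residues, rose the most of the 7. Resting libraries 4 and 5 held 2 and 6 counts of it and their tetramer counterparts 747 and 229, or 0.414 and 1.28 CPM against 153 and 46.3 CPM. The lowest tetramer library was 36.1 times the highest resting library. Its log2 fold change was 6.84 ± 0.67 (SE; edgeR adjusted p = 5.85e-08, n = 2 each), rank 4 among the rises of all 11312 tested genes. Because so few counts were seen at rest, the ratio of scaled counts, 118, has a wide exact 95% interval from counting error alone, 59.6 to 274. With tetramer library 4 left out the Gzmb log2 fold change was 5.75, and with resting library 4 left out 6.27. Omitting tetramer library 5 gave 7.47, and omitting resting library 5 gave 7.85.

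Granzyme A is a tryptase, cutting after basic residues. At rest it had the most counts of the 3, with 59 and 27 counts in resting libraries 4 and 5 against 570 and 1500 in the tetramer libraries. In CPM these were 12.2 and 5.77 at rest and 117 and 303 after stimulation, so the lowest tetramer library was 9.54 times the highest resting one. On the log2 scale it rose by 4.54 ± 0.50 (edgeR adjusted p = 3.53e-07), rank 45 among rises. This estimate was 3.70 without tetramer library 5 and 5.19 without resting library 4, with the other two omissions between them.

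Granzyme C, a close relative of granzyme B in the same gene cluster, was scarce at rest, at 6 and 1 counts, where 1 is the lowest count in the table. It had 55 and 83 counts after stimulation, or 1.24 and 0.214 CPM against 11.3 and 16.8 CPM. On the log2 scale it rose by 4.21 ± 0.78 (edgeR adjusted p = 0.000274), and the exact 95% interval of the scaled count ratio of 19.1 ran from 9.01 to 48.3. Its log2 value was 5.89 without resting library 4 and 3.49 without resting library 5, and the resting libraries differed 5.82-fold from each other on these few counts.

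The tetramer libraries differed from each other in which granzyme they held. Gzmb was 3.30 times higher in tetramer library 4 than in library 5, while Gzma was 2.60 times higher in library 5 than in library 4. As a share of the summed Gzma, Gzmb and Gzmc counts of a library, which needs no scaling between libraries, Gzmb made up 54.4% in tetramer library 4 (exact 95% interval 51.8 to 57.1) and 12.6% in library 5 (11.1 to 14.3). Gzma made up 41.5% (38.9 to 44.2) and 82.8% (81.0 to 84.5), and Gzmc 4.01% and 4.58%. At rest Gzma made up 88.1% of 67 counts and 79.4% of 34 counts, and Gzmb 2.99% (0.364 to 10.4) and 17.6% (6.76 to 34.5). The interval of the Gzmb share of tetramer library 5 overlaps that of resting library 5 and lies above that of resting library 4, while that of tetramer library 4 stands above all others. With 2 libraries a group this split has no test, and intervals cover counting error only, since reads amplified by PCR and not marked by molecular identifiers need not be separate molecules.

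**Figure D2:**
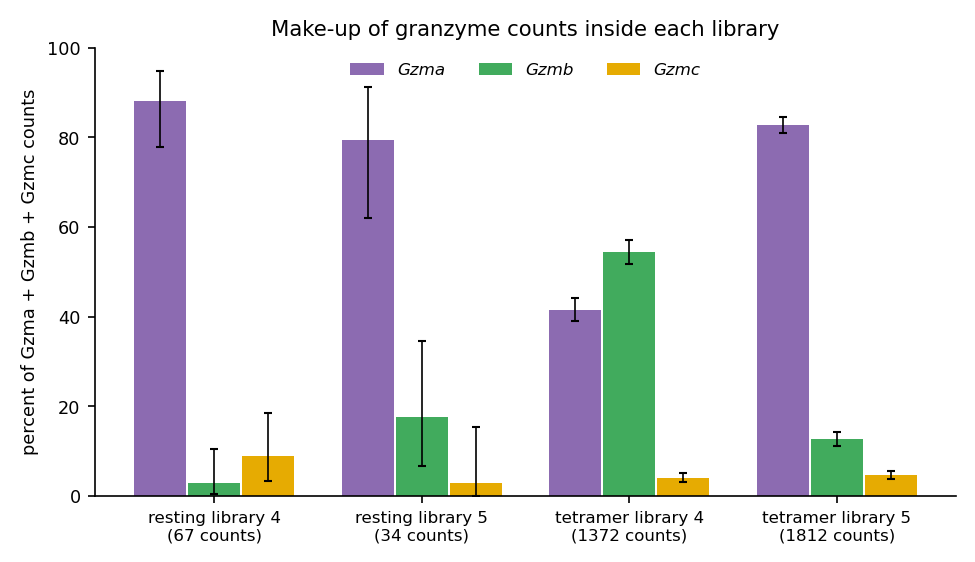
Percent of the summed Gzma, Gzmb and Gzmc counts taken by each granzyme in each library, with exact 95% binomial intervals for counting error. Gzmb takes 54.4% in tetramer library 4 and 12.6% in tetramer library 5, and Gzma leads in the other 3 libraries.

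Serglycin, the proteoglycan core that holds granzymes and other basic proteins in the granule, was abundant before stimulation and rose further. Its counts were 9065 and 9171 at rest and 40355 and 32965 after stimulation, or 1878 and 1960 CPM against 8257 and 6668 CPM. Serglycin alone took 0.217% and 0.207% of all counts of the resting libraries and 0.734% and 0.611% of the tetramer libraries. The difference was 1.96 ± 0.41 on the log2 scale (edgeR adjusted p = 0.00105), and ranged from 1.81 to 2.11 over the omission of each library. This is a 3.89-fold change, smaller than those of the granzymes but with little spread between libraries.

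Perforin was measured at a low and nearly constant level. It had 54 and 56 counts at rest and 44 and 53 after stimulation, or 11.2 and 12.0 CPM against 9.0 and 10.7 CPM. The log2 fold change was -0.23 ± 0.55 (edgeR adjusted p = 0.789), with a 95% interval from -1.35 to 0.89. The granzymes thus rose with no rise of Prf1 called, under any of the 12 settings.

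Cathepsin C, the activator of granzyme precursors, did not pass the test either. Its counts were 182 and 130 at rest and 130 and 106 after stimulation, or 37.7 and 27.8 CPM against 26.6 and 21.4 CPM. Tetramer minus resting was -0.45 ± 0.45 on the log2 scale (edgeR adjusted p = 0.483), with a 95% interval from -1.36 to 0.47.

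Fas ligand moved the other way. Its counts were 1126 and 957 at rest and 277 and 319 after stimulation, or 233 and 205 CPM against 56.7 and 64.5 CPM. The lowest resting library was 3.17 times the highest tetramer library. The log2 fold change was -1.85 ± 0.37 (edgeR adjusted p = 0.000637), and ranged from -1.94 to -1.74 over the omission of each library. Fasl was thus well expressed at rest, and stimulated libraries still held at least 56.7 CPM.

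**Figure D3:**
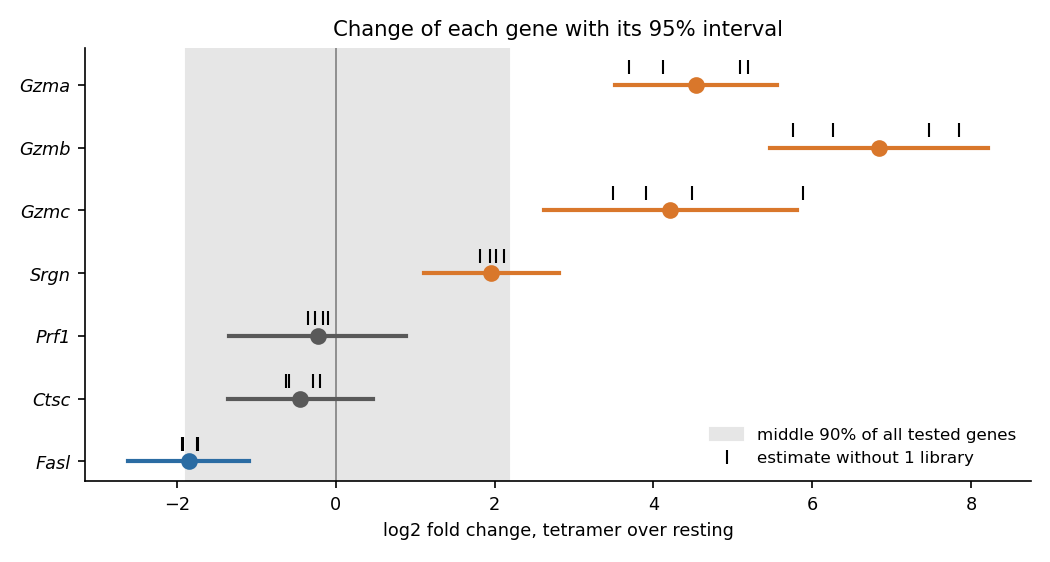
Change of each gene after stimulation (log2 of tetramer over resting) with its 95% interval from the edgeR fit (orange called higher, blue called lower, grey not called), and black ticks for the estimates without 1 library. The grey band is the middle 90% of all tested genes, -1.89 to 2.19, and the 3 granzymes lie above it.

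Per kilobase of transcript (GENCODE M21 lengths, matched for 7 of 7 genes), the order of levels changed with stimulation. At rest the mean CPM per kilobase was 1111 for Srgn, 113 for Fasl, 13.1 for Ctsc, 10.2 for Gzma, 4.68 for Prf1, 0.815 for Gzmc and 0.591 for Gzmb. Neighbours overlapped between libraries for Ctsc and Gzma, and for Gzmc and Gzmb. After stimulation the order was Srgn at 4321, Gzma at 239, Gzmb at 69.3, Fasl at 31.3, Gzmc at 15.7, Ctsc at 9.64 and Prf1 at 3.99 CPM per kilobase. By transcript length, Gzma (878 bases) stood above Gzmb (1436 bases) in both tetramer libraries, at 133 and 346 against 106 and 32.3. In tetramer library 4 this order depends on the length used. There Gzmb had more counts, 747 against 570, and its coding length is 741 bases against 780 for Gzma. The libraries of Gzmb and Fasl overlapped (29.3 and 33.3 for Fasl). The cDNA was selected by size and amplified by PCR, per the labels' protocols, so counts may not scale with transcript length.

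Genes of granzyme and cathepsin inhibitors, read together with granule cathepsins, included members called in both directions. Of 12 tested members of a list of granzyme inhibitors, granule cathepsins and cystatins, 4 were called higher, 3 lower and 5 were not called, against 26.4% called over all tested genes, with a median log2 fold change of 0.39. The 4 called higher are inhibitor genes, and of the 3 called lower Ctsh and Ctss encode cathepsins. Serpinb9, the inhibitor of granzyme B, rose from 68.9 ± 13.4 to 234 ± 43.1 CPM (SD, n = 2 each), and Cst7, which encodes cystatin F, an inhibitor of cathepsin C, rose from 146 ± 24.2 to 452 ± 13.3 CPM. Both were chosen after their values were seen. The serpin Serpina3g rose from 17.1 ± 13.0 to 145 ± 8.74 CPM and Serpinb6b from 12.1 ± 1.37 to 55.7 ± 27.5 CPM. Serpinb6a fell from 48.7 ± 3.84 to 10.9 ± 3.80 CPM and the cathepsin Ctsh from 15.3 ± 9.56 to 3.87 ± 1.47 CPM. Serpinb6a and Serpinb6b belong to a family of related genes, and how reads that fit several members were counted is not stated, so their split is uncertain. Without tetramer library 4 the calls of Serpinb6b (adjusted p = 0.120), Serpinb6a (0.0622) and Ctsh (0.0891) were lost and 0 members of the list were called lower. Ctsh also lost its call when resting library 5 (0.223) or tetramer library 5 (0.196) was omitted, or against a fold of 1.5 (0.0504).

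Among 10 tested granule membrane and lysosome genes, 2 rose and 1 fell, a share near the 26.4% called over all tested genes, with a median of -0.07. Nkg7, a granule membrane protein of cytotoxic lymphocytes, rose from 100 ± 49.6 to 451 ± 25.0 CPM, and Calr, the chaperone calreticulin that also resides in granules, rose from 125 ± 48.1 to 388 ± 53.2 CPM. Cd63, a tetraspanin, fell from 12.8 ± 7.57 to 3.46 ± 0.316 CPM, but was no longer called when resting library 5 (adjusted p = 0.238), tetramer library 4 (0.196) or 5 (0.182) was left out, or against a fold of 1.5 (0.0657).

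The machinery that moves and releases granules was called in 6 of 29 cases, 3 higher and 3 lower, with a median of -0.12, no more often than the 26.4% of all tested genes. With library totals 2 were called higher and 6 lower. Sytl3, a synaptotagmin-like partner of Rab27, rose from 28.8 ± 10.5 to 152 ± 34.2 CPM. Unc13d, which encodes Munc13-4, the priming factor of granule fusion, rose from 6.44 ± 2.07 to 25.6 ± 11.0 CPM, though it was not called without tetramer library 4 (adjusted p = 0.256). Lyst, a regulator of lysosome size, fell from 86.4 ± 45.7 to 23.9 ± 10.9 CPM and the small GTPase gene Rab37 from 43.6 ± 16.0 to 9.54 ± 4.53 CPM. Without tetramer library 4 neither was called (adjusted p = 0.114 and 0.0848), nor was Lyst without resting library 4 (0.0622), and 1 member was called higher and 0 lower. Without resting library 4 the list had 2 members higher and 4 lower, and without tetramer library 5 it had 2 and 2. Rab27a, the GTPase that docks granules, measured 127 ± 35.5 and 67.1 ± 12.7 CPM (edgeR adjusted p = 0.0718), and was called lower without resting library 4 (0.0419) and with library totals (0.0204).

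Enzymes that build the glycosaminoglycan chains of serglycin and other proteoglycans were called higher in 4 of 18 cases and lower in 1, near the 26.4% of all tested genes, with a median of -0.12. With library totals the split turned to 2 higher and 3 lower. Chst11, a chondroitin 4-sulfotransferase, rose from 1.38 ± 0.774 to 17.7 ± 0.432 CPM, and B3galt6, which builds the linker of the chain, from 3.14 ± 1.12 to 23.4 ± 0.385 CPM. Csgalnact1, which starts chondroitin chains on that linker, fell from 13.4 ± 3.12 to 0.612 ± 0.293 CPM. The rise of the sulfate donor transporter Slc35b2, from 8.69 ± 3.53 to 24.1 ± 3.50 CPM, missed the threshold when resting library 5 was omitted (adjusted p = 0.144), without either tetramer library (0.287 without 4, 0.105 without 5), with library totals (0.0930) or against a fold of 1.5 (0.0873). Of the list, 2 members were called higher without either tetramer library, and 2 lower without either resting library.

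Fas ligand belongs to the TNF superfamily, whose other tested death ligand and lymphotoxin genes did not all move with it. Of 5, 2 rose and 1 fell, against 14.3% and 12.1% of all tested genes, with a median of -0.24. Tnf rose from 36.4 ± 8.09 to 516 ± 164 CPM and Lta, lymphotoxin alpha, from 27.4 ± 8.77 to 159 ± 73.9 CPM. Ltb, lymphotoxin beta, fell from 322 ± 71.9 to 145 ± 12.4 CPM, but not past the threshold without resting library 5 (adjusted p = 0.136) or either tetramer library (0.152 without 4, 0.165 without 5), or against a fold of 1.5 (0.0913). Tnfsf10, which encodes TRAIL, was at 25.2 ± 6.89 and 21.3 ± 2.62 CPM (edgeR adjusted p = 0.736).

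On the receiving side, 2 of 15 death receptor and caspase genes rose and 1 fell, no larger a share than the 26.4% of all tested genes, with a median of 0.07. The effector caspase gene Casp6 rose from 6.92 ± 2.23 to 55.5 ± 2.71 CPM. Fas, the receptor of Fas ligand, was low in both groups, at 5.29 ± 2.79 and 8.53 ± 3.96 CPM (edgeR adjusted p = 0.446). The TRAIL receptor Tnfrsf10b fell from 85.9 ± 23.9 to 38.3 ± 7.89 CPM, but was no longer called on omission of resting library 5 (adjusted p = 0.188), tetramer library 4 (0.330) or 5 (0.0835), or against a fold of 1.5 (0.105).

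**Figure D4:**
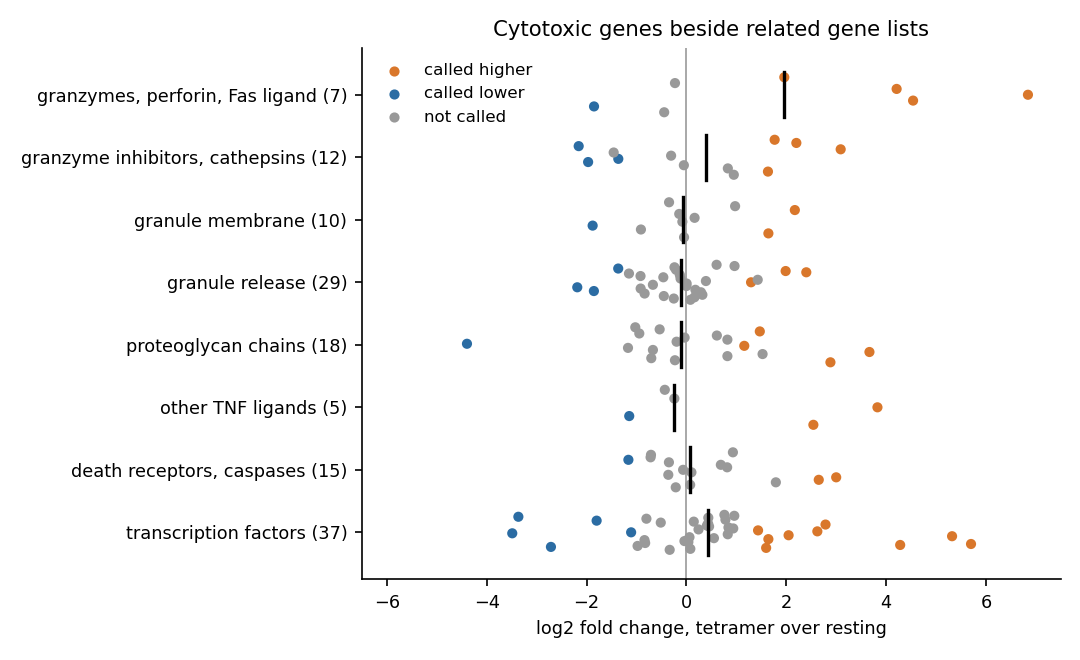
Change after stimulation (log2 of tetramer over resting) for the tested members of each list, with the number tested in parentheses, black bars at the medians, and orange, blue and grey for genes called higher, called lower and not called. The 7 genes have a median of 1.96, and the medians of the other lists lie between -0.24 and 0.43.

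Transcription factors described as regulators of cytotoxic genes were called higher in 9 of 37 cases and lower in 5, against 14.3% and 12.1% of all tested genes, with a median of 0.43, and 8 were lower with library totals. Among those induced by receptor signals, Egr3 rose from 0.628 ± 0.284 to 34.1 ± 2.43 CPM, Irf4 from 5.64 ± 3.74 to 227 ± 13.5 CPM and Egr2 from 10.6 ± 5.59 to 206 ± 25.8 CPM. Klf2, a factor of quiescent and recirculating T cells, fell from 137 ± 24.4 to 12.2 ± 6.23 CPM. The rest of those called lower, named after their values were seen, were Bcl6, Tcf7, Lef1 and Stat4. Bcl6 fell from 93.4 ± 47.2 to 14.2 ± 10.2 CPM and Tcf7 from 29.6 ± 4.71 to 2.84 ± 1.13 CPM. Lef1 fell from 149 ± 23.1 to 69.2 ± 0.876 CPM and Stat4 from 662 ± 309 to 190 ± 33.0 CPM. Their calls were not followed singly over the alternative settings. Rbpj, a Notch effector gene, rose from 115 ± 12.2 to 791 ± 128 CPM, the AP-1 family genes Jun from 16.4 ± 1.25 to 67.9 ± 44.5 CPM and Batf from 42.7 ± 11.8 to 129 ± 1.83 CPM, and Nfatc1 from 288 ± 50.9 to 777 ± 138 CPM. Nfatc1 was not called without tetramer library 5 (edgeR adjusted p = 0.0619). The call of Jun was not followed over the alternative settings either, and its tetramer libraries 4 and 5 measured 36.4 and 99.3 CPM. Some other factors known to act on granzyme and perforin genes were not called. Like Rbpj, Jun, Batf and Nfatc1, they are named after their values were seen. Tbx21, which encodes T-bet, was at 59.8 ± 13.3 and 81.0 ± 6.70 CPM (edgeR adjusted p = 0.417), Runx3 at 142 ± 17.0 and 99.4 ± 13.9 CPM (0.303), Eomes at 11.2 ± 5.01 and 6.30 ± 2.83 CPM (0.321) and Prdm1, which encodes Blimp-1, at 4.50 ± 1.84 and 5.99 ± 1.82 CPM (0.673).

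The genes with the most similar profile were taken by the distance between log2 CPM values centred on their mean over the 4 libraries. For Gzmb they were the chemokine gene Ccl1 (distance 0.425), the chemokine gene Ccl3 (0.571) and the interferon gamma gene Ifng (0.702). All 3 were higher in tetramer library 4 than in library 5, as Gzmb was, at 108 and 43.3 CPM for Ccl1, 895 and 245 CPM for Ccl3 and 1488 and 762 CPM for Ifng. For Fasl they were Dguok, a mitochondrial deoxyguanosine kinase (0.0795), Tnrc6b, a component of microRNA silencing complexes (0.111), and the histone variant gene H2afv (0.115). Their log2 fold changes were -1.83, -1.90 and -1.78, beside -1.85 for Fasl. All these genes were picked by their likeness to Gzmb or Fasl in the same 4 libraries. The patterns they share with them therefore follow from the choice and are no separate result.

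Granzymes and perforin are also made by NK cells and CD8 T cells, and Srgn by many blood cells, so markers of these cells were read in the same libraries. Of 11 NK and innate lymphoid markers 6 had a row, and Ncr1, Klra8, Klra4 and Gata2 were among those with none. Of the 5 tested, 0 were called by edgeR, against 26.4% of all tested genes. The summed level of the 6 was 61.7 and 98.7 CPM in the resting libraries and 49.3 and 82.7 CPM in the tetramer libraries. The most abundant were Fcer1g, at 28.1 ± 4.04 and 35.5 ± 17.5 CPM, and Tyrobp, at 32.8 ± 16.2 and 14.8 ± 2.76 CPM. Klrb1c was listed with the NKT markers above, not with these, and was called lower. Tyrobp was called lower with library totals (adjusted p = 0.0274) and without resting library 4 (0.0138). Cd8a and Cd8b1 together summed to 35.2 and 67.3 CPM in the resting libraries and 12.3 and 17.4 CPM in the tetramer libraries, and Cd8b1 was called lower, a call lost without resting library 5 (0.0694) or tetramer library 4 (0.122).

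Tested markers of platelets and red cells, macrophages, neutrophils, endothelial cells and hepatocytes were called lower after stimulation or not called. Over all tested genes 12.1% were called lower. The summed level of 5 platelet and red cell markers with a row was 141 and 356 CPM at rest and 28.6 and 70.2 CPM after stimulation, with 4 of 4 tested called lower (Hba-a1 82.1 ± 61.6 to 17.9 ± 11.1 CPM, Hbb-bs 78.2 ± 41.7 to 16.2 ± 10.5 CPM), and Ppbp and Pf4 had no row. Hba-a1 missed the threshold on omission of resting library 5 (adjusted p = 0.107) or tetramer library 4 (0.0619), and Hbb-bs on omission of the latter (0.0552). Macrophage markers, of which 2 of 4 tested were called lower and Lyz2, C1qa and Clec4f had no row, summed to 35.8 and 56.6 CPM at rest and 11.9 and 16.8 CPM after stimulation, and the 2 neutrophil markers S100a8 and S100a9, both called lower while Elane and Mpo had no row, to 19.5 and 18.0 against 1.84 and 3.24 CPM. Omission of tetramer library 4 removed the calls of S100a8 (adjusted p = 0.247), S100a9 (0.0875) and the macrophage marker Csf1r (0.262), and omission of tetramer library 5 those of S100a8 (0.190) and Csf1r (0.0573). Pecam1, the 1 of 10 endothelial markers with a row, was called lower, at 75.0 and 28.8 against 10.2 and 15.8 CPM, though not after omission of resting library 4 (adjusted p = 0.0982) or tetramer library 4 (0.0818). Of the hepatocyte markers, 3 of 12 hepatocyte markers had a row, without Alb, with 1 called lower (Serpina1a, not without tetramer library 4, adjusted p = 0.157) and a sum of 50.3 and 52.4 against 45.2 and 28.3 CPM. These sums were lower in the tetramer libraries, as Fasl was, and opposite to the granzymes and Srgn, and their part in these results was not tested.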

How the data were processed

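Whole-number read counts per gene symbol were deposited by the authors for 4 libraries, with no normalization. Bowtie2, DESeq2 and the build mm9 appear in the submitters' processing notes without versions, and neither the counting tool nor its use of strand is stated. Columns carry the numbers 4 and 5, not the titles' replicate numbers, and were matched to groups only. The table has no count below 1, so genes at 0 in a library were not analysed here, and 1 row (Tmem138) with a cell that is not a number was left out. Counts were tested with edgeR 4.0.16 (R 4.3.3), using its quasi-likelihood F test with filterByExpr, TMM scaling and Benjamini-Hochberg adjustment over 11312 genes. Standard errors come from the F statistic. Alternatives used DESeq2 1.42.0, limma 3.58.1 (voom), other scaling and filters, a fold of 1.5, a replicate block and the omission of each library. On simulated counts of 11289 genes for this comparison with 50 genes altered at each size, a 2-fold change was called for 1 gene, a 4-fold change for 32, an 8-fold change for 44 and a 16-fold change for 48, and 3 of 128 calls were false.

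The 7 genes and the lists were chosen with earlier results of these data known. Besides the 7, genes named were up to 4 called members of largest change per list (the member of smallest p where none was called), the 2 most abundant of each marker list and 3 profile neighbours each of Gzmb and Fasl (prior count 2), leaving out unnamed gene models, receptor segments and date-like symbols. Chosen outside this rule, after their values were seen, were Serpinb9, Cst7, Ctss, Rab27a, Tnfsf10, Fas, Zbtb16, Cd3e, Klrb1c, Bcl6, Tcf7, Lef1, Stat4, Rbpj, Jun, Batf, Nfatc1, Tbx21, Runx3, Eomes and Prdm1. Promoters are RefSeq's (GRCm38.p6), with 7 of 7 genes matched. Coding sequences were aligned with Biopython 1.88. The planned comparison of granzyme proteins was replaced by that of coding sequences. Some results for members of the related and marker lists are not reported here.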

Additional observations from a re-analysis of the deposited data

How the results depend on the processing

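The calls of the 7 genes were the same in all 84 comparisons with an alternative: 4 higher and 1 lower each time, also without any 1 library and with the replicate block. The column numbers need not pair the libraries: deviations of same-numbered libraries from their group means correlated by 0.05 across genes, and the replicate block gave 1693 genes higher and 1468 lower. Over all tested genes, omitting 1 library gave 622 to 1629 higher and 313 to 1488 lower, fewest without tetramer library 4. A lone library was then assumed to vary as the other pair did. Library totals gave 2250 lower (34.7% of calls higher, against 54.3%) and the test against a fold of 1.5 gave 785 lower and 1110 higher. The related lists together had 26 genes higher and 15 lower, and 20 to 28 higher and 5 to 16 lower without 1 library. These lists had 12, 10, 29, 18, 5, 15 and 37 tested members, and over all tested genes 14.3% were called higher and 12.1% lower. Library totals put 25 of the related genes lower, and a required fold of 1.5 left 8. The cause was not tested. Signs reversed for 4 genes with no call: Il2rb was at -0.20 with library totals, and without 1 library Il2rb ranged from -0.38 to 0.47, Fcer1g from -0.27 to 0.79, Cyp2e1 from -0.26 to 0.87 and Tnfsf10 from -0.47 to 0.082. Few counts at rest limit the precision for Gzmb and Gzmc, with 8 and 7 counts in total.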
